A study of Homo sapiens with 2 samples.

Results

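ATF4 is the transcription factor that carries out much of the integrated stress response, and its transcripts were examined here in DDX3X CLIP-seq libraries of unstressed HEK293FT cells, an established human embryonic kidney line. The transcripts were chosen by identifier: 2 of the 68731 transcripts in the deposited tables, uc003axz.2 and uc003aya.2, carry the UCSC Known Genes identifiers given to ATF4. The tables do not pair identifiers with gene symbols, and the RefSeq gene table used here lists neither identifier, so the name ATF4 rests on the UCSC identifier alone. In that table (GRCh38.p14) ATF4 lies on chromosome 22, from 39520559 to 39522686, a span of 2128 bp, with 2 RefSeq transcripts. A separate list of promoters places ATF4 on the plus strand, with 2 start sites 3 bp apart.

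Both libraries came from 1 group, wild-type HEK293FT cells exposed to DMSO, the solvent of the stress agent thapsigargin, although another label field describes the cells as untreated. Cells were crosslinked with ultraviolet light of 254 nm in 3 exposures of 400 mJ/cm2, and DDX3X with its attached RNA was precipitated with a rabbit polyclonal antibody raised by the submitters. Thapsigargin-treated libraries, input RNA, a control precipitation and total RNA were not analysed here. A read number therefore combines how abundant an RNA was with how well it was recovered with DDX3X, and the 2 cannot be told apart. The total was 19307022 counts for replicate 1 and 11238842 for replicate 2. The labels do not say whether the replicates were separate cultures, so their spread may be technical. Because names were lacking, markers of the cell line and other genes of the stress response could not be looked up.

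ATF4 messenger RNA is present in resting cells, but its main coding sequence is translated poorly there, because ribosomes start at short upstream open reading frames in the leader. When eIF2alpha is phosphorylated, as happens in stress of the endoplasmic reticulum, ribosomes bypass the inhibitory upstream frame and ATF4 protein accumulates. It then switches on genes for amino acid supply, redox balance and, if stress lasts, cell death. DDX3X is a DEAD-box RNA helicase that helps translation start on messenger RNAs with structured leaders. The series describes resting cells as the control for acute stress.

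ATF4 was among the transcripts with most reads in both libraries. The shorter entry, uc003axz.2, had 2923 reads in replicate 1 and 1598 in replicate 2. As CPM, counts per 1000000 of all counts in the library, these were 151.4 CPM (Wilson 95% interval 146.0 to 157.0) and 142.2 CPM (135.4 to 149.3), a mean of 146.8 ± 6.51 CPM (SD, n = 2). The longer entry, uc003aya.2, had 3045 reads in replicate 1 and 1657 in replicate 2. These were 157.7 CPM (152.2 to 163.4) and 147.4 CPM (140.5 to 154.7), a mean of 152.6 ± 7.27 CPM (SD, n = 2). For each entry the intervals of the replicates overlapped, and they describe counting error alone, because amplified copies of a molecule are not independent. Both entries stood far above the upper limit that a count of 0 allows (3 counts), which is 0.155 CPM in the first library and 0.267 CPM in the other.

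The authors' TPM values (transcripts per 1000000) divide each count by transcript length. Dividing count by TPM gave that length up to 1 scale per library, and this scale turned all values into whole numbers within 5.1e-10. The lengths were 1419 nt for uc003axz.2 and 2021 nt for uc003aya.2, the same from either library. Both are below the genomic span of the RefSeq gene. They were not compared with annotated transcript lengths.

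Per unit length the order of the ATF4 entries turned round. The deposited TPM of uc003axz.2 was 200.9 in replicate 1 and 195.3 in replicate 2, a mean of 198.1 ± 3.98 (SD, n = 2). That of uc003aya.2 was 146.9 and 142.2, a mean of 144.6 ± 3.38 (SD, n = 2). By TPM the shorter entry was higher in both replicates, by 1.37-fold each time, and the replicate values of the entries did not overlap. By count the longer entry was higher in both replicates, yet its CPM in replicate 2 lay below that of the shorter entry in replicate 1. No test was made between the entries, since whether they share reads is not given.

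The ATF4 entries had nearly equal read counts. The longer one exceeded the shorter by 602 nt, 1.42 times the length, but by only 122 reads in replicate 1 and 59 in replicate 2, which is 4.17% and 3.69% more. The surplus came to 20.3 reads per 100 nt of additional length in replicate 1, where uc003axz.2 as a whole had 206.0 reads per 100 nt. In replicate 2 the figures were 9.80 and 112.6. The surplus is a small difference between large counts, and no interval was computed for it. The tables do not say whether the shorter entry is contained in the longer, so the surplus has no stated position in the RNA. The TPM ratio of 1.37 between the entries is the length ratio of 1.42 times a count ratio of 0.960 in replicate 1 and 0.964 in replicate 2. Any read assigned to both entries would enter a sum for the gene more than once, and the tables do not show whether such reads exist, so no sum is given.

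Another entry stood directly above these in the deposited table and resembled them. It was uc011aol.1, of 1515 nt, noticed after its values were seen and not paired with a gene by any table used here. It had 2998 reads in replicate 1 and 1654 in replicate 2, between the ATF4 entries in both libraries. Its TPM was 193.0 and 189.3, close below that of uc003axz.2. It was also the entry whose pattern lay nearest to uc003axz.2 among the 3307 transcripts of similar length, at a distance of 0.061 on the log2(CPM + 1) scale over the 2 libraries, although 7 transcripts lay within 0.1. For uc003aya.2 the nearest of 5898 transcripts of similar length was uc001bty.1, of 2158 nt. It had 2915 reads in replicate 1 and 1649 in replicate 2, lay at a distance of 0.063 and was the only one of these within 0.1. The search left out the ATF4 entries and, because of its length, uc011aol.1. In both libraries the reads of uc011aol.1 were nearer than those of uc001bty.1 to the 3045 and 1657 of uc003aya.2. These likenesses rest on 2 libraries. Only 99 transcripts in the table, 0.213% of those whose summed reads reached 10, had counts within 10% of uc003axz.2 in both libraries, uc003aya.2 and uc011aol.1 among them. Adjacent rows of the table were often this alike: of 4676 adjacent pairs with at least 1000 summed reads each, 59.5% had counts within 10% in both libraries.

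**Figure D1:**
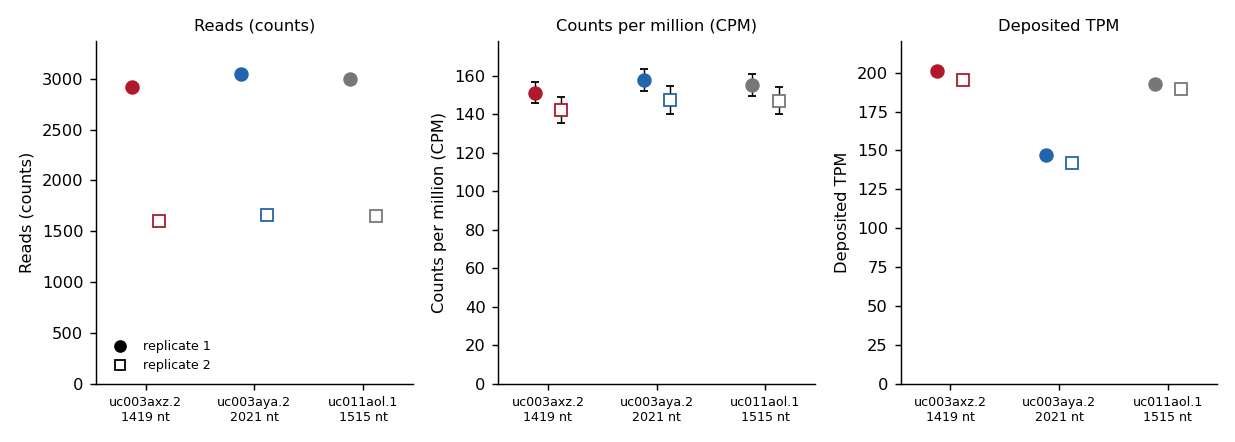
Reads, CPM and deposited TPM of the ATF4 entries uc003axz.2 and uc003aya.2 and of the unnamed entry in the adjacent row, uc011aol.1, with filled circles for replicate 1, open squares for replicate 2, and Wilson 95% intervals on CPM. The 3 entries are alike in reads and CPM, while TPM of uc003aya.2, the longest at 2021 nt, lies at 146.9 and 142.2, below the others.

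Entries with neighbouring identifiers did not share this level as a group. The 5 identifiers before uc003axz.2 had between 208 and 1749 reads in replicate 1 and between 84 and 934 in replicate 2. Of the 5 after uc003aya.2, the first had 1490 and 792 reads and the other 4 had 3 reads each in replicate 1 and between 1 and 3 in replicate 2. Every one of the 10 had fewer reads than either ATF4 entry in both libraries. The highest TPM among them, 156.9 in replicate 1 and 148.3 in replicate 2, was that of the first entry after uc003aya.2, which has 926 nt, and this exceeded the TPM of uc003aya.2 in both libraries.

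Among transcripts of similar length, ATF4 stood near the top. Each entry was set against the transcripts whose length lay within 10% of its own and which had at least 10 summed reads, the ATF4 entries left out. For uc003axz.2 these were 3307 transcripts of 1278 to 1560 nt, with a median TPM of 9.80 in replicate 1 and 9.70 in replicate 2. The value of uc003axz.2 exceeded the median by 20.5-fold in replicate 1 and 20.1-fold in replicate 2, a mean of 20.3 ± 0.264 (SD, n = 2). Its TPM stood at the 98.2 percentile in replicate 1 and the 98.1 percentile in replicate 2, with 61 and 62 transcripts above it. By read count the percentiles were 98.2 and 98.0, nearly the same by construction, since lengths within the set are similar.

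For uc003aya.2 the comparison set held 5898 transcripts of 1819 to 2223 nt. Their median TPM was 7.27 in replicate 1 and 7.37 in replicate 2. The value of uc003aya.2 was 20.2-fold and 19.3-fold above it, a mean of 19.8 ± 0.667 (SD, n = 2). It stood at the 98.4 percentile by TPM in replicate 1 and the 98.3 percentile in replicate 2, with 94 and 98 transcripts above it. By read count the percentiles were 98.4 and 98.3, again nearly the same by construction. The fold over the median depended on which lowly read transcripts entered the set: with no filter on reads it was 33.4 for uc003axz.2 and 33.7 for uc003aya.2. Although their TPM differed 1.37-fold, the entries were thus placed almost alike within their own lengths, the median TPM of the longer set being lower in both replicates.

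**Figure D2:**
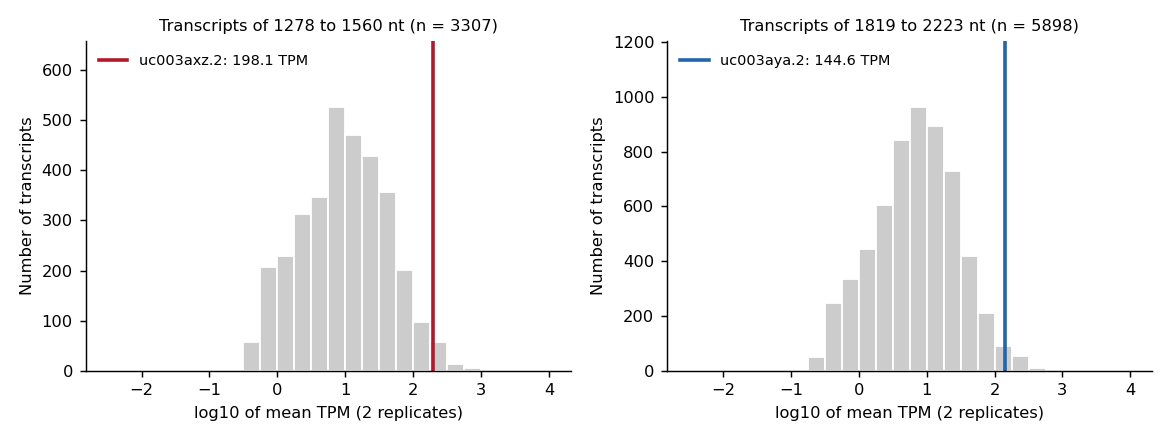
Distribution of mean TPM over both replicates, on a log10 axis, for transcripts within 10% of the length of uc003axz.2 (left, 3307 transcripts) and uc003aya.2 (right, 5898 transcripts), with bars as numbers of transcripts and a vertical line at the ATF4 entry. Both lines, at 198.1 and 144.6 TPM, fall in the thin upper end, where 64 and 94 transcripts were higher.

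Over the whole table ATF4 was high but not at the extreme. Among 46395 transcripts with at least 10 summed reads, uc003axz.2 ranked 809th by mean CPM and 669th by mean TPM, with 1.74% and 1.44% of transcripts above it. The longer uc003aya.2 ranked 756th and 981st, with 1.63% and 2.11% above it. These ranks count entries with near-equal counts separately. The transcript with most reads, uc010ail.2, had 27393 reads in replicate 1 and 12933 in replicate 2, and its TPM was 746.3 and 626.4. Its CPM was 9.37 times that of uc003axz.2 in replicate 1 and 8.09 times in replicate 2, and its TPM was 3.71 and 3.21 times as high. By mean TPM uc010ail.2 ranked only 94th, so its TPM does not mark the top of the TPM scale.

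The ATF4 reads divided between the libraries close to the way all reads did. Replicate 1 held 63.2% of all counts, 64.7% of those of uc003axz.2 (Wilson 95% interval 63.2 to 66.0%) and 64.8% of those of uc003aya.2 (63.4 to 66.1%). This is a log2 ratio of replicate 1 over replicate 2 of 0.09 for uc003axz.2 and 0.10 for uc003aya.2, after scaling to library totals and adding 0.5 counts. The exact binomial test, two-sided and Benjamini-Hochberg adjusted over all 46395 transcripts, placed neither past 0.05, with p = 0.0450 and adjusted p = 0.0842 for uc003axz.2, and p = 0.0273 and adjusted p = 0.0553 for uc003aya.2. Of the 2 entries, 0 were therefore called and 2 had an unadjusted p under 0.05, against 48.6% of all transcripts tested called in either direction and 23.6% called as higher in replicate 1. The calls changed with the scaling: with TMM factors from edgeR the same exact binomial test gave adjusted p = 0.0471 for uc003axz.2 and 0.0309 for uc003aya.2, at log2 ratios of 0.10 and 0.11. The test compares these libraries with sampling noise and not conditions.

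The ATF4 ratios were closer to 0 than those of most transcripts with as many reads. Of 756 transcripts with summed reads within 25% of the 4521 of uc003axz.2, 32.9% had a ratio closer to 0 and 63.0% were called. Of 727 such transcripts around the 4702 reads of uc003aya.2, 35.9% had a ratio closer to 0 and 63.3% were called. The median size of the log2 ratio among these transcripts was 0.15 in both sets. In those that also matched uc003axz.2 in length the median ratio was 0.05 (60 transcripts), and for uc003aya.2 it was 0.04 (80 transcripts), on the same side of 0 as ATF4.

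**Figure D3:**
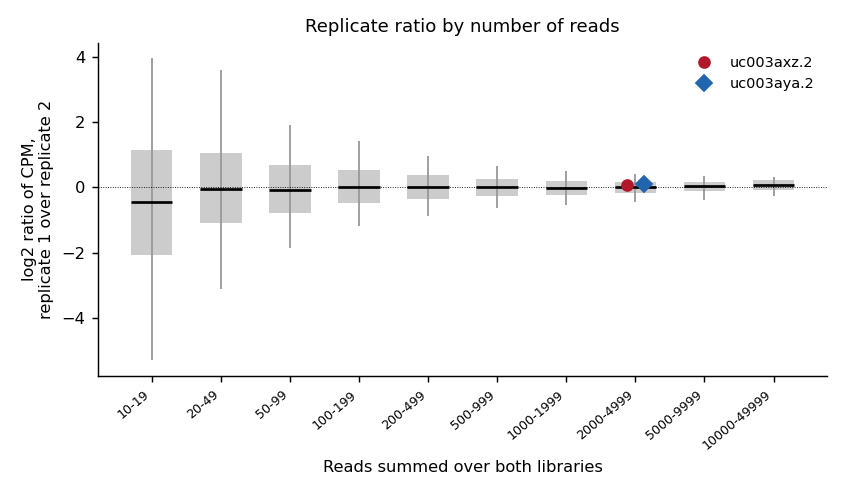
Log2 ratio of CPM in replicate 1 over replicate 2 by the reads summed over both libraries, with black lines for medians, grey boxes for quartiles and thin lines from the 5th to the 95th percentile of transcripts. The ATF4 entries, a circle at 0.09 and a diamond at 0.10, lie inside the box of their range, from 2000 to under 5000 reads, whose quartiles are -0.18 and 0.17.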

How the data were processed

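The authors deposited whole-number counts per transcript and TPM values of the same transcripts for both libraries. The column headers give the protein and the replicate number, matched here to the sample titles, and do not name the treatment. Cutadapt 4.1, STAR 2.7.0d and the build hg38 are named per the submitters' processing notes. The counting program, the removal of duplicates and the handling of reads shared by overlapping transcripts are not given in the sources used here. The rule that chose the transcripts takes their identifiers from the hg19 edition of UCSC Known Genes. The transcripts and the comparison settings were chosen with earlier results of these data known.

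Lengths, CPM, percentiles and the binomial test were computed in Python 3.11.15 (scipy 1.17.1). Scaling factors came from edgeR 4.0.16 (TMM) and DESeq2 1.42.0 in R 4.3.3. With 1 group, neither offers a contrast. Percentiles count ties at equal weight above and below. Transcripts to be described were those named by identifier, the nearest in pattern, the 5 identifiers on either side and the highest-read pair, of which uc010ail.2 is given. On simulated independent reads of 46395 transcripts, calls by the binomial test covered 67.5% of the 200 with a 2-fold change, all 41 of those with at least 1000 reads, and 0.011% of unchanged ones. The real reads varied more, with a mean squared deviation of 22.0 times the binomial variance at the depth of ATF4. The simulated shares are therefore not error rates for these libraries. Multiplying the variance by the mean squared deviation of the same transcripts, as done below, brings their mean to that of counting error. Few calls then follow by construction, and adjusted p is mostly high. All 46395 simulated lengths were recovered, which checks the arithmetic alone, since the simulated TPM were made from those lengths. No transcript sequence was used here.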

Additional observations from a re-analysis of the deposited data

How the results depend on the processing

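TMM and DESeq2 scaling kept the geometric mean library size, so by construction mean CPM moved by less than the replicate SD. With totals without the 100 highest transcripts, mean CPM was by construction higher, at 158.1 for uc003axz.2 and 164.3 for uc003aya.2. With 1 transcript kept per run of consecutive identifiers with counts within 10%, mean TPM was 264.4 and 192.9, since fewer transcripts share the total. Leaving out 1 replicate gave 142.2 to 151.4 CPM and 195.3 to 200.9 TPM for uc003axz.2, and 147.4 to 157.7 CPM and 142.2 to 146.9 TPM for uc003aya.2.

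By mean TPM uc003axz.2 stood at the 98.1 percentile of its length, and at 98.3 with lengths within 5%, 98.0 within 25%, 98.5 unfiltered, 97.6 from 50 summed reads, 98.6 with 1 transcript per run, and 98.1 to 98.2 without 1 replicate. The percentile of uc003aya.2 was 98.4, and 98.5, 98.5, 98.8, 98.1, 98.8 and 98.3 to 98.4 in the same order. The fold over the median, varied after the data were seen, was 33.4 and 33.7 unfiltered, and 14.5 and 14.9 from 50 reads.

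In the exact binomial tests with other scalings, uc003axz.2 passed under TMM (0.10) and without the 100 highest (0.10), and uc003aya.2 under TMM (0.11), DESeq2 factors (0.10) and without the 100 highest (0.11). Adjusted p over all settings ran from 0.0471 to 0.984 and from 0.0309 to 0.983, the upper ends with the variance multiplied by the mean squared deviation at this depth, 22.0. The number of transcripts called in all, 22546, lay between 19372 and 22574 in the exact binomial tests. The lowest number was with at least 50 summed reads, where fewer transcripts were tested, so these numbers are not shares of the same total. The multiplied variance, a chi-square approximation counted after the data were seen, gave 0. Few calls follow by construction, with 2230 of 46395 at unadjusted p under 0.05. With 1 group no paired analysis was possible. The exact test called most transcripts at this depth (63.0% and 63.3%).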
